A study of Mus musculus with 6 samples.

Results

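A set of 7 transcripts that mark excitatory neurons of the cerebral cortex and hippocampus were followed in hypothalamic RNA from 3 mouse genotypes: Slc17a7, Nptx1, Neurod6, Neurod2, Tbr1, Emx1 and Lamp5. They were chosen by name, with earlier results of these data known. The shares over all genes given beside their counts are therefore background and not separate evidence. All array probes whose transcript accession belonged to these 7 genes were taken, which gave 1 probe for each gene and 2 for Tbr1, and all 7 genes had a tested probe among 22863 genes tested. The tissue came from male C57BL/6J mice aged 16 weeks. Trsp-RIPKO mice carried TrspFlox/Flox with RIP-Cre, a recombinase driven by an insulin promoter, and Trsp-Ins1KO mice carried TrspFlox/Flox with Ins1-Cre, driven by the gene for insulin 1, while TrspFF mice carried the floxed alleles with no Cre named. Trsp encodes the transfer RNA for selenocysteine, and all 3 genotypes carry its floxed alleles. RIP-Cre lines are known to be active in some hypothalamic neurons as well as in pancreatic beta cells. Each genotype had 2 single-colour Cy3 arrays. The labels do not say whether these arrays came from separate or pooled animals, so a p-value here reflects nothing but array-to-array spread, which could be technical. Neither the borders of the dissection nor the fate of the floxed allele is given in the sources used here.

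The scanner files and the value table the authors deposited disagree on which knockout is which. Each table column labelled Trsp-RIPKO tracked an array whose scanner file is labelled Trsp-Ins1KO, and the reverse, at r of 0.99996 or above over probes centred on their median. Both TrspFF columns tracked their own arrays. Group names below are those of the scanner files. Under the names of the value table each result for 1 knockout belongs to the other, and the difference between the knockouts changes sign.

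As background, these genes belong to the glutamatergic projection neurons of the dorsal forebrain. Slc17a7 (VGLUT1) loads glutamate into their synaptic vesicles, whereas most glutamatergic neurons of the hypothalamus use Slc17a6 (VGLUT2). Emx1 is a homeobox factor of the dorsal forebrain, Neurod2 and Neurod6 are helix-loop-helix factors of excitatory neurons that bind E-boxes together with E proteins, and Tbr1 is a T-box factor of deep-layer neurons. Nptx1 is a secreted pentraxin that clusters AMPA receptors. Lamp5 is a neuronal membrane protein of the LAMP family that also marks a class of cortical interneurons.

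RefSeq promoter windows (GRCm38.p6) were found for 6 of the 7 genes. The 3 windows below belong to the 3 forebrain factors whose tested probe was well above background on all 6 arrays. Each gives the 250 bases before the annotated start, 5′ to 3′, with E-boxes (CANNTG, which reads the same on both strands) in capitals.
Neurod6, chr6:55681264-55681513, minus strand: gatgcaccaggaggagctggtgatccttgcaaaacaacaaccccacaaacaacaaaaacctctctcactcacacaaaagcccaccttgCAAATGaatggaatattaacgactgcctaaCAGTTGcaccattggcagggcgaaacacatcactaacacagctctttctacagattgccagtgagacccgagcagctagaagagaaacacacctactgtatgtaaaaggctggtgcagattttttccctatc
Neurod2, chr11:98329646-98329895, minus strand: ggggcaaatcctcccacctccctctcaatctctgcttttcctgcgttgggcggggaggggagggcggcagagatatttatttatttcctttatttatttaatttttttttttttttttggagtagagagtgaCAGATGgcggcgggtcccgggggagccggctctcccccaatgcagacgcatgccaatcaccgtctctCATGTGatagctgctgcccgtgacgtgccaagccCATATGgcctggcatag
Tbr1, chr2:61804203-61804452, plus strand: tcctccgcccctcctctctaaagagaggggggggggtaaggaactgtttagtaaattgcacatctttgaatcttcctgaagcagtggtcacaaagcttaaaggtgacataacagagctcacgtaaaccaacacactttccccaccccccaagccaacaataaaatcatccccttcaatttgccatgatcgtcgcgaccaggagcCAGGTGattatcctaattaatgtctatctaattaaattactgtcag
The Neurod2 window held 3 E-boxes, 1 of them CAGATG, the Neurod6 window held 2 and the Tbr1 window 1. At least 1 E-box stood in each of the 7 windows of the 6 genes (Lamp5 has 2 windows), against 66.2% of all 32851 windows of this length. CAGATG, or CATCTG on the other strand, was in 1 of the 7 windows and in 14.4% of all windows, and every CAGATG is also counted as an E-box. The homeodomain motif TAATTA, the same on both strands, occurred 2 times in the Tbr1 window, in 0 of the other member windows and in 4.84% of all windows. CAGCTG, the same on both strands, and the T-box motif AGGTGTGA, or TCACACCT on the other strand, were in 0 of the 7 windows, against 13% and 1.12% of all windows. Such matches describe letters in the window and are not binding sites.

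Levels are log2 processed signals from which the 75th percentile of their own array was subtracted, so a level of 0 equals that percentile. Signals at the 75th percentile lay between 1433 and 2205 units, 69.7% to 72.7% of spots were well above background, and 0 spots were saturated. The number of arrays limits the precision. Both TrspFF arrays lie on 1 slide and scan and all 4 knockout arrays on another, so for comparisons with TrspFF slide and genotype cannot be told apart, while the 2 knockouts can be compared within a slide. Of 13 genes listed for hypothalamic and subcortical glutamatergic neurons, 12 had a tested probe. The list includes regional factors, such as Rax, Lhx2 and Nkx2-1, that are not confined to glutamatergic neurons. Slc17a6 stood at 3.09 and 3.13 in Trsp-RIPKO, 3.1 and 3.47 in Trsp-Ins1KO, and 2.75 and 2.82 in TrspFF. Nr5a1, of ventromedial neurons, was well above background on all 6 arrays. Sim1, of paraventricular neurons, fell short of the background criterion on Trsp-Ins1KO replicate 1 and on both Trsp-RIPKO arrays, and Otp was not tested. Sim1 was dim on every array, with levels from -6.995 to -4.54, and no other gene of the 12 fell short on any array.

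Most of the 7 genes differed widely between the 2 arrays labelled Trsp-Ins1KO. The helix-loop-helix gene Neurod6 had levels of -0.46 and -0.66 in Trsp-RIPKO, -1.18 and -5.28 in Trsp-Ins1KO, and -1.16 and -0.67 in TrspFF. Trsp-Ins1KO replicate 2 was thus 17.2-fold below replicate 1, a gap of -4.10 (log2) that 0.0394% of all tested genes undercut on those arrays. On the other 5 arrays Neurod6 stayed within the span of -1.18 to -0.46.

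Neurod2, its relative, showed the same order. Its levels were 1.19 and 0.89 in Trsp-RIPKO, 0.06 and -2.75 in Trsp-Ins1KO, and 0.24 and 0.71 in TrspFF. Replicate 2 of Trsp-Ins1KO was 7.04-fold below replicate 1 and lay below every other array. Both Trsp-RIPKO arrays lay above both TrspFF arrays, and both Trsp-Ins1KO arrays below them.

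The dorsal forebrain factor Emx1 had levels of -2.56 and -2.42 in Trsp-RIPKO, -3.57 and -6.63 in Trsp-Ins1KO, and -4.32 and -3.20 in TrspFF. On Trsp-Ins1KO replicate 2 its probe was not well above background, so its level there is only a bound. Set at the lowest level among probes well above background there, replicate 2 was at least 8.17-fold below replicate 1. Trsp-Ins1KO replicate 1 itself lay between the 2 TrspFF arrays.

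Tbr1 was covered by 2 probes. The brighter, which was tested, gave 1.30 and 1.55 in Trsp-RIPKO, 0.62 and -1.66 in Trsp-Ins1KO, and -0.06 and 0.98 in TrspFF. The dimmer gave -3.60 and -5.19 in Trsp-RIPKO, -5.93 and -8.88 in Trsp-Ins1KO, and -6.54 and -5.68 in TrspFF, and was not well above background on Trsp-Ins1KO replicate 2 or TrspFF replicate 1. Both probes were lowest on Trsp-Ins1KO replicate 2, and their differences had the same sign in all 3 comparisons. They disagreed on Trsp-RIPKO, where the dimmer probe put replicate 2 below replicate 1 and the brighter did not.

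Among the synaptic and membrane genes the gap was smaller. Lamp5 stood at -0.41 and 0.23 in Trsp-RIPKO, -0.98 and -2.60 in Trsp-Ins1KO, and -2.0 and -0.28 in TrspFF. Its probe is printed 10 times on each array, and the SD over those spots was between 0.0456 and 0.119 (log2), against replicate gaps of 0.64, -1.62 and 1.72 in Trsp-RIPKO, Trsp-Ins1KO and TrspFF. The spot SD covers the scatter within an array and not labelling or hybridisation, which differ between arrays. Lamp5 was the member with the largest gap in TrspFF, where replicate 1 was 3.29-fold below replicate 2.

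Slc17a7, the vesicular glutamate transporter, had levels of -0.05 and -0.03 in Trsp-RIPKO, -1.21 and -1.81 in Trsp-Ins1KO, and -0.92 and -0.38 in TrspFF. Its 3 genotypes did not overlap on any pair, and Trsp-Ins1KO replicate 2 was 1.51-fold below replicate 1. Nptx1 went the other way between those arrays, on a dim probe. Its signals there were 50.7 and 66.0 units, where the lowest signals well above background were 26.2 and 20.4. Its levels were -4.48 and -4.71 in Trsp-RIPKO, -5.14 and -4.91 in Trsp-Ins1KO, and -4.61 and -4.32 in TrspFF, and Trsp-Ins1KO replicate 2 was 1.18-fold above replicate 1.

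**Figure D1:**
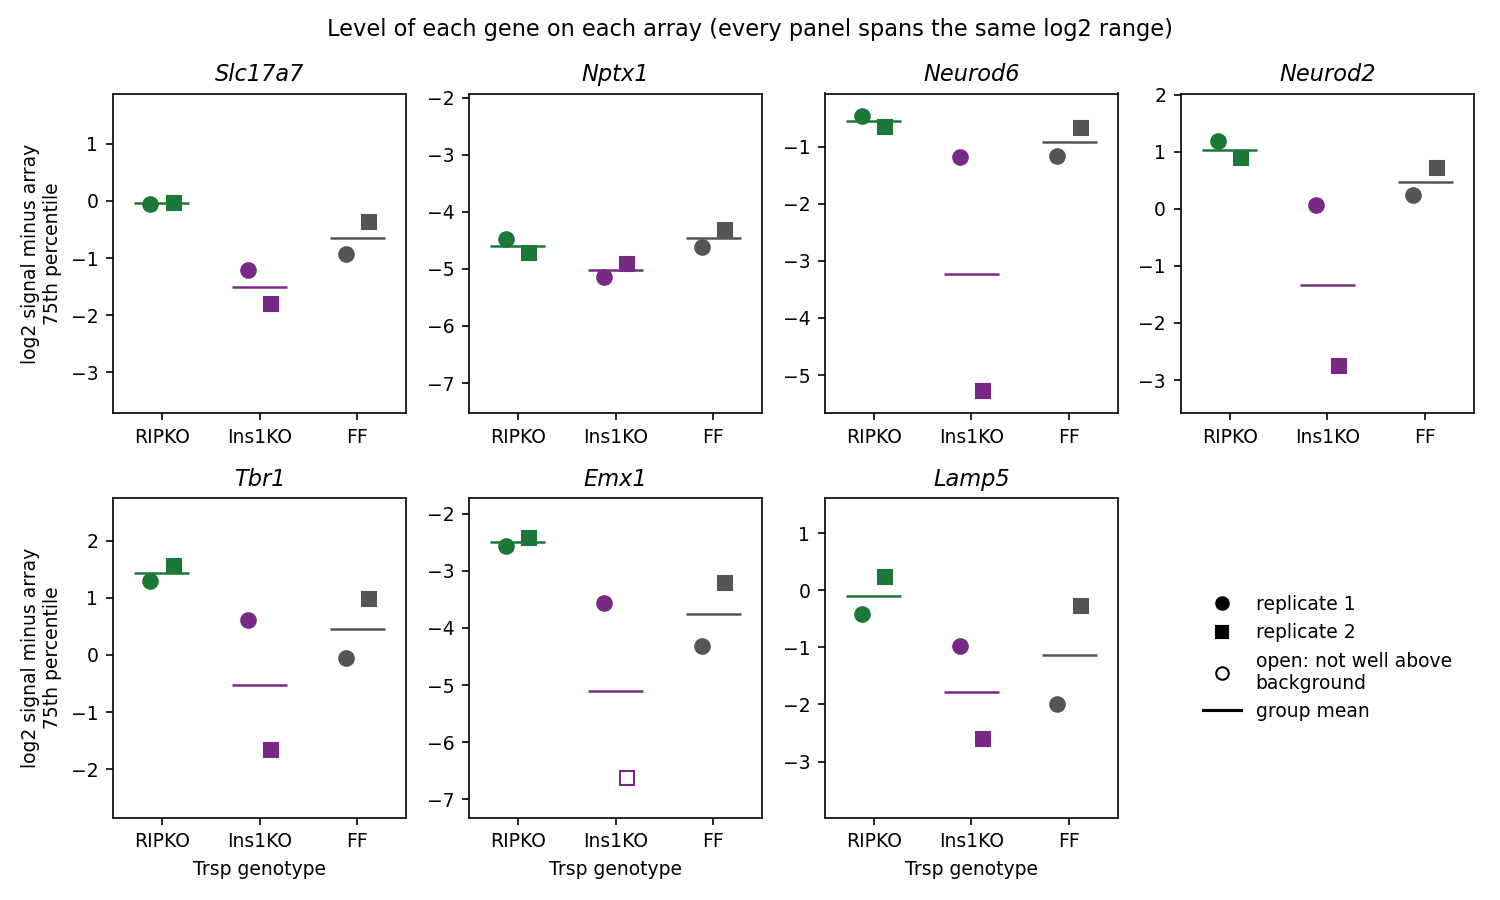
Level of each gene (log2 signal minus the 75th percentile of the array, vertical axis) on the 2 arrays of each genotype (horizontal axis), with circles for replicate 1, squares for replicate 2, open symbols for probes not well above background and bars for group means. Trsp-Ins1KO replicate 2 is lowest for 6 of the 7 genes, at -5.28 for Neurod6 and -6.63 for Emx1, while Nptx1 spans 0.82 over all 6 arrays.

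In the arrays labelled Trsp-Ins1KO, replicate 2 lay below replicate 1 for 6 of the 7 genes (50.5% of all genes), and for 5 of them by at least 1 (log2). A fall of at least 1 was found for 2.53% of all tested genes on those arrays. The median gap of the members there was -2.28, against -0.002 for all genes tested, and it was -1.501 with normexp correction. For 6 of the 7 genes the lowest level of all arrays was on Trsp-Ins1KO replicate 2, as it was for 15.3% of all genes tested. The 4 transcription factor genes had gaps from -4.10 to -2.28, and Slc17a7, Nptx1 and Lamp5 had gaps of -0.59, 0.23 and -1.62.

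The 2 TrspFF arrays differed in the other direction. Replicate 2 was above replicate 1 for 7 of 7 genes (46.3% of all genes), by at least 1 for Tbr1 (1.04), Emx1 (1.12) and Lamp5 (1.72), a rise found for 1.91% of all tested genes. The median gap was 0.55 for the 7 genes and -0.02 for all genes. The 2 Trsp-RIPKO arrays lay closest together, with a median gap of 0.03 and a range of -0.30 to 0.64, and 0 of the 7 genes differed by 1 or more there (0.8% of all genes by at most -1 and 1.01% by at least 1). These gaps are single differences between 2 arrays and carry no test.

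**Figure D2:**
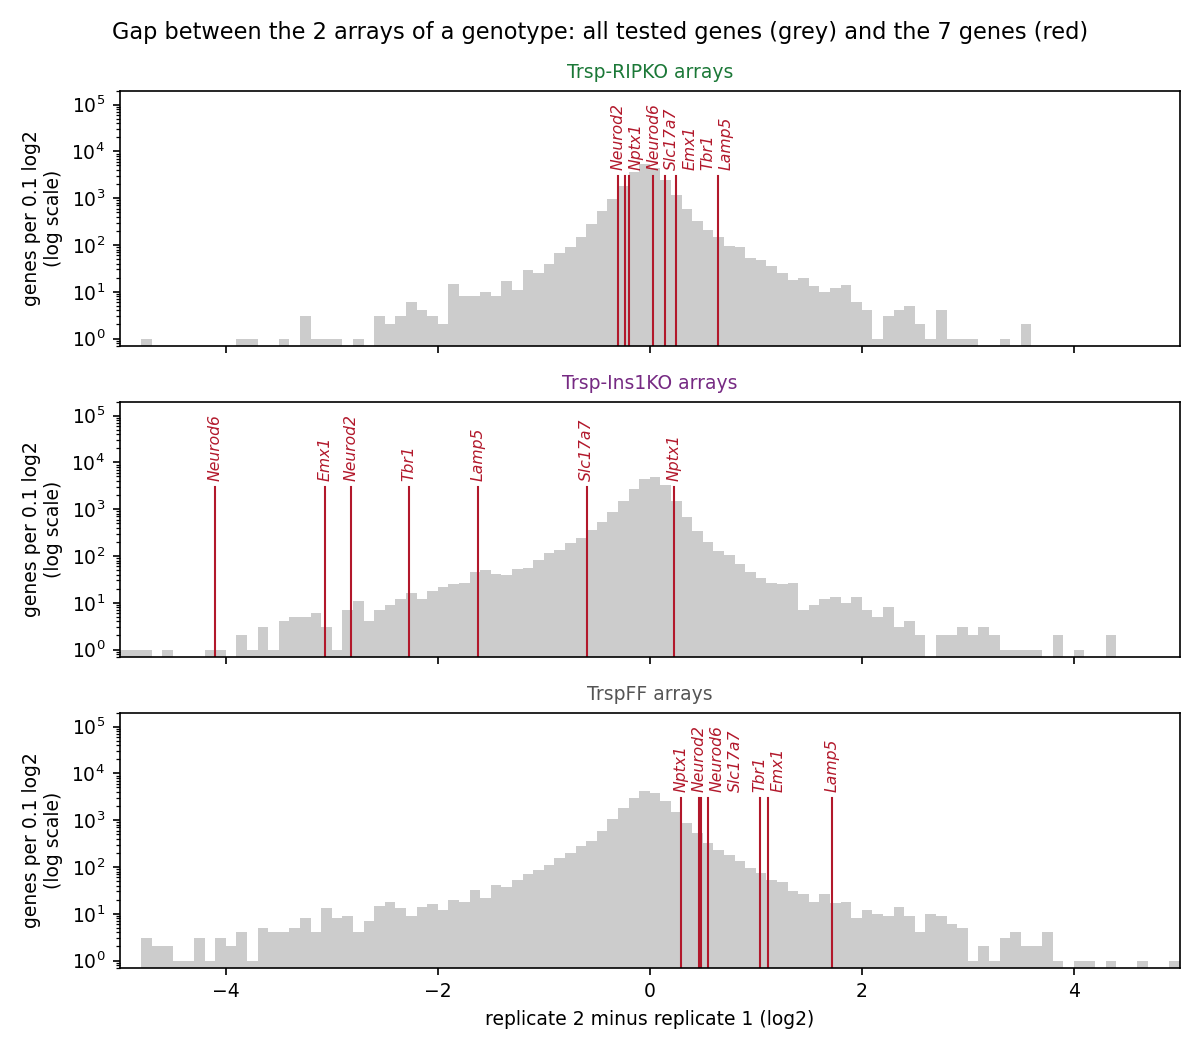
Replicate 2 minus replicate 1 (log2, horizontal axis) for all tested genes (grey, number of genes on a log scale) and for the 7 genes (red lines), by genotype. In Trsp-Ins1KO the members run from -4.10 (Neurod6) to 0.23 (Nptx1), in TrspFF all 7 lie between 0.29 and 1.72, and in Trsp-RIPKO between -0.30 and 0.64; a few genes lie beyond the axis.

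In the comparison of arrays labelled Trsp-RIPKO with TrspFF, 6 of the 7 genes had a higher mean in Trsp-RIPKO (48.4% of all genes did) and 0 passed the test across all genes (limma on all 6 arrays, Benjamini-Hochberg adjusted p under 0.05), where 1.63% of all genes tested passed in either direction. At an unadjusted p under 0.05 the count of members was also 0, against 23.8% of all genes. The median difference was 0.61 for the members and -0.01 for all genes. Neither group overlapped the other for 5 genes, all above TrspFF (Slc17a7, Neurod6, Neurod2, Tbr1 and Emx1), an arrangement found for 28.2% of all tested genes. For Neurod6 this was a near tie, with Trsp-RIPKO replicate 2 at -0.657 and TrspFF replicate 2 at -0.673. Emx1 averaged -2.49 ± 0.10 in Trsp-RIPKO and -3.76 ± 0.79 in TrspFF (SD, n = 2 each), a difference of 1.27 (SE 1.05, limma adjusted p = 0.488). Slc17a7 averaged -0.04 ± 0.02 in Trsp-RIPKO and -0.65 ± 0.39 in TrspFF, a difference of 0.61 (SE 0.27, limma adjusted p = 0.253). Without TrspFF replicate 1 the Emx1 and Slc17a7 differences were 0.72 and 0.34. Nptx1 was at -0.13 (95% interval -0.55 to 0.28), and its sign turned with normexp correction (0.0155), with quantile normalization (0.0382) and without TrspFF replicate 2 (0.0125).

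Against the same 2 control arrays, those labelled Trsp-Ins1KO had a lower mean for 7 of 7 genes (46.9% of all genes), and again 0 passed (limma, all genes), against 1.83% of all genes. Slc17a7 and Nptx1, 2 of the 7, had an unadjusted p under 0.05, as did 25.8% of all genes. The median difference was -0.98, and 0.02 for all genes tested. Slc17a7, Nptx1, Neurod6 and Neurod2 lay below TrspFF on both arrays, as did 26.5% of all genes. For Neurod6 this was a near tie, with Trsp-Ins1KO replicate 1 at -1.176 and TrspFF replicate 1 at -1.159. Slc17a7 averaged -1.51 ± 0.42 in Trsp-Ins1KO and -0.65 ± 0.39 in TrspFF (SD, n = 2 each), a difference of -0.86 (SE 0.27, limma adjusted p = 0.143). Nptx1 averaged -5.02 ± 0.16 in Trsp-Ins1KO and -4.46 ± 0.21 in TrspFF, a difference of -0.56 (SE 0.16, limma adjusted p = 0.126), and of -0.27 with normexp correction. Neurod6 averaged -3.23 ± 2.90 in Trsp-Ins1KO and -0.92 ± 0.34 in TrspFF, a difference of -2.31 with a 95% interval of -5.74 to 1.12 (limma adjusted p = 0.327).

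The size of that comparison rested on 1 array. Without Trsp-Ins1KO replicate 2 the members' median difference from TrspFF was -0.26, with 3 genes positive and 4 negative, and without Trsp-Ins1KO replicate 1 it was -2.12 with 7 of 7 negative. Neurod6 was at -0.26 and Slc17a7 at -0.57 without replicate 2. Leaving out replicate 2 turned the sign of Tbr1 (0.16), Emx1 (0.20) and Lamp5 (0.16). Controls mattered too: without TrspFF replicate 1 the median was -1.51, without TrspFF replicate 2 it was -0.59, and Lamp5 then turned to 0.21. For Trsp-RIPKO the median difference from TrspFF was 0.33 without TrspFF replicate 1 and 0.88 without TrspFF replicate 2. In bulk RNA, fewer cells of a type and less RNA per cell cannot be told apart.

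Between the knockouts, which share a slide, 7 of 7 genes were higher on both arrays labelled Trsp-RIPKO than on both labelled Trsp-Ins1KO, as were 23.1% of all genes tested. The median difference was 1.95 for the members and -0.05 for all genes. None of the 7 passed the test (limma, smallest adjusted p = 0.265), where 4 of 22863 genes did (0.0175%), and 2 members had an unadjusted p under 0.05, as did 18.3% of all genes. Slc17a7 averaged -0.04 ± 0.02 in Trsp-RIPKO and -1.51 ± 0.42 in Trsp-Ins1KO (SD, n = 2 each), a difference of 1.47 with a 95% interval of 0.77 to 2.17 (limma adjusted p = 0.265). With the 4 knockout arrays fitted alone its adjusted p was 0.081. Neurod6 differed by 2.67 with an interval of -0.76 to 6.10 (limma adjusted p = 0.324), and Emx1 by 2.61 with an interval of -0.10 to 5.33 (limma adjusted p = 0.276; 1 of its 2 Trsp-Ins1KO values is the bound given above). The Emx1 difference was 1.54 with normexp correction, 1.08 without Trsp-Ins1KO replicate 2 and 4.15 without Trsp-Ins1KO replicate 1, and that of Neurod6 was 0.62 and 4.72 without the same arrays. Without Trsp-Ins1KO replicate 2 the median of the 7 was 0.89 and all 7 stayed positive.

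**Figure D3:**
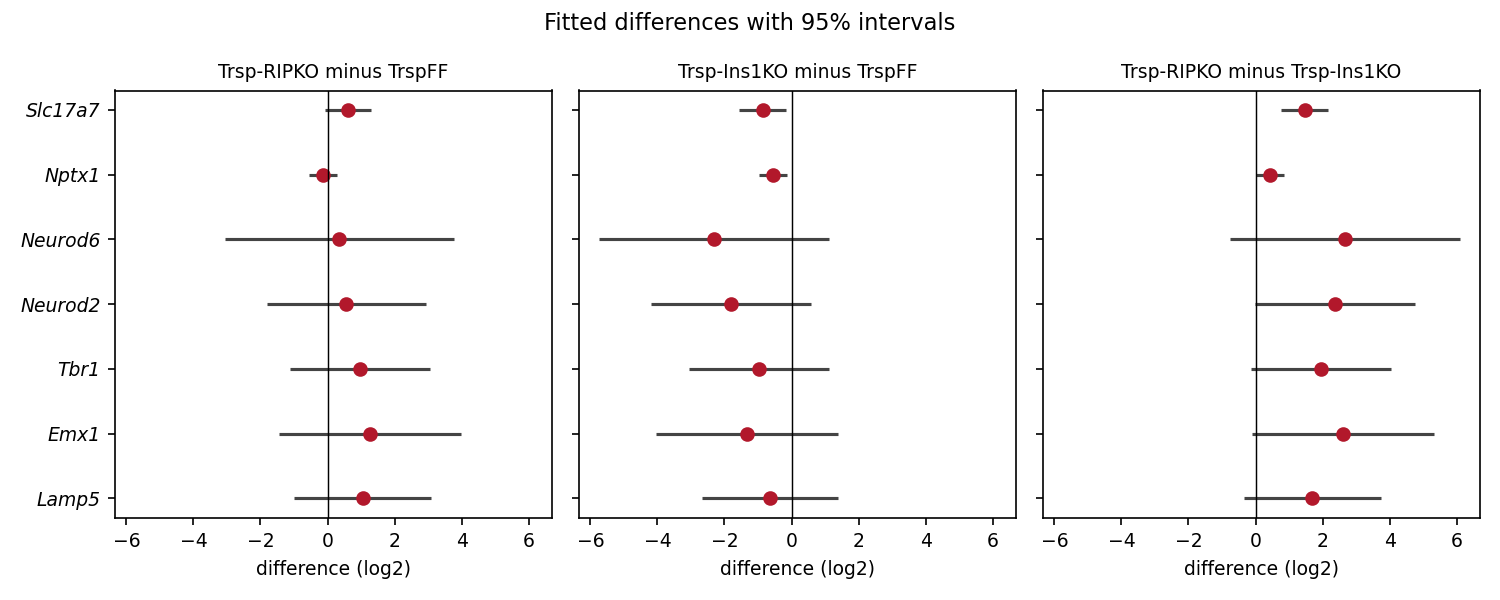
Fitted difference (log2, horizontal axis) of each gene in 3 comparisons, with 95% intervals from the moderated standard error (n = 2 arrays per genotype). Intervals of Neurod6, Neurod2, Tbr1, Emx1 and Lamp5 cross 0 in all 3 panels, and that of Slc17a7 is 0.77 to 2.17 for Trsp-RIPKO minus Trsp-Ins1KO.

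By the order of group means, 6 of the 7 genes were highest in Trsp-RIPKO, then TrspFF, then Trsp-Ins1KO. Nptx1 was highest in TrspFF. No neighbouring pair in these orders differed beyond its spread by the adjusted test. The genotypes shared the same 2 control arrays in both comparisons, so the differences are given side by side and not as separate evidence.

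Of 30 other genes listed for cortical and hippocampal excitatory neurons, 29 were tested. They had medians of 0.35 for Trsp-RIPKO minus TrspFF, -0.34 for Trsp-Ins1KO minus TrspFF and 0.75 for Trsp-RIPKO minus Trsp-Ins1KO. In these comparisons 0 passed (limma, smallest adjusted p = 0.0924, 0.0958 and 0.265). An unadjusted p under 0.05 was found for 2, 3 and 15 of the 29, against 23.8%, 25.8% and 18.3% of all genes. Mef2c, a MADS-box factor of excitatory neurons, averaged -1.31 ± 0.21 in Trsp-RIPKO and -2.90 ± 0.37 in Trsp-Ins1KO (SD, n = 2 each), a difference of 1.59 (limma adjusted p = 0.265). Bhlhe22, a helix-loop-helix factor, differed by 1.15 and Nrgn, which binds calmodulin in dendrites, by 1.74 (limma adjusted p = 0.265 for both). Tle4, a corepressor of deep-layer neurons, had the opposite order, at -3.06 ± 0.03 in Trsp-RIPKO and -2.12 ± 0.48 in Trsp-Ins1KO, a difference of -0.93 (limma adjusted p = 0.265). On the Trsp-Ins1KO arrays 25 of the 29 were lower in replicate 2 (50.5% of all genes). Of the 29, 8 were lower by at least 1, against 2.53% of all genes. The following were picked from the 29 after their values were seen. Itpka, an inositol trisphosphate kinase of dendritic spines, had a gap of -2.58, and Fezf2, of deep-layer neurons, one of -2.10. Icam5 (-1.59), Kcnv1 (-1.56), Nrgn (-1.48) and Bcl11b (-1.30) had smaller gaps. Cux1 (0.09), Cux2 (0.36), Rorb (0.17) and Rasgrf2 (0.02), also listed for cortical neurons, had gaps in the other direction.

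Genes that work with the members, such as glutamate receptors, other glutamate transporters, pentraxins and E proteins, were listed apart. Of 18 listed, 17 were tested and 0 passed in any comparison (limma, smallest adjusted p = 0.0647, 0.0588 and 0.265 in the same order). An unadjusted p under 0.05 was found for 4, 5 and 6 of the 17, against 23.8%, 25.8% and 18.3% of all genes. Grin1, the obligate NMDA receptor subunit, averaged -4.61 ± 0.03 in Trsp-Ins1KO and -3.995 ± 0.003 in TrspFF, a difference of -0.61 (SE 0.09, limma adjusted p = 0.0588). Between the knockouts the AMPA receptor subunit gene Gria1 averaged 1.76 ± 0.09 in Trsp-RIPKO and -0.38 ± 0.24 in Trsp-Ins1KO, a difference of 2.14 with a 95% interval of 0.56 to 3.71 (limma adjusted p = 0.265). Gria2, for another AMPA receptor subunit, differed by 1.05 and Gria4 by -0.27 (limma adjusted p = 0.265 for both). Nptx2, a pentraxin related to Nptx1, stood at -1.31 and -1.22 in Trsp-RIPKO, -1.36 and -1.36 in Trsp-Ins1KO, and -1.82 and -1.74 in TrspFF. It lay above TrspFF on all 4 knockout arrays, with differences of 0.51 and 0.42 in Trsp-RIPKO and Trsp-Ins1KO (limma adjusted p = 0.0647 and 0.0824). Those 4 arrays share a slide that holds no TrspFF array, so slide and genotype cannot be told apart here.

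The genes whose profile over the 6 arrays was most like the mean of the 7 were found by the root mean square difference of centred levels. Psrc1, a spindle protein, was closest at 0.106 (log2), followed by the potassium channel gene Kcnj4 (0.128), Fezf2 (0.162), the interferon-inducible GTPase gene Tgtp2 (0.170), Kalrn (0.172), which encodes a GTPase exchange factor of spines, the muscarinic receptor gene Chrm1 (0.177), Kcnv1 (0.202) and Vipr1 (0.206), a receptor for vasoactive intestinal peptide. Kcnj4 had levels of 1.96 and 1.85 in Trsp-RIPKO, 0.82 and -0.96 in Trsp-Ins1KO, and 0.88 and 1.84 in TrspFF. Within the 7, Tbr1 was nearest to their mean (0.171) and Nptx1 farthest (0.902). The likeness is over 6 arrays and carries no test.

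Choroid plexus and meningeal markers, from tissue next to a hypothalamic sample, moved with the gap between the Trsp-Ins1KO arrays. Striatal, thalamic, astrocyte and oligodendrocyte genes did not, with median gaps of 0.06, 0.33, 0.08 and 0.30. Choroid plexus genes (15 of 15 tested) had a median replicate gap of -1.91 on the Trsp-Ins1KO arrays. Of the 15, 10 were at -1 or below, against 2.53% of all genes tested. The mean centred level of these genes was -2.10 on Trsp-Ins1KO replicate 2 against 0.06 to 0.87 on the other arrays. Ttr, the transthyretin gene of the choroid plexus, stood at 5.61 and 5.85 in Trsp-RIPKO, 5.34 and -0.99 in Trsp-Ins1KO, and 6.27 and 5.53 in TrspFF. Meningeal and fibroblast genes (12 of 12 tested) had a median gap of -1.32 on the Trsp-Ins1KO arrays. Of the 12, 7 were at -1 or below, against the same 2.53%. The part of the choroid plexus and meningeal genes in the result on the 7 genes was not tested. The log2 of the summed scaled signals of the 7 genes was 2.89 and 2.96 in Trsp-RIPKO, 2.03 and -0.02 in Trsp-Ins1KO, and 1.79 and 2.58 in TrspFF.

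In TrspFF the 7 genes moved in the opposite direction to the choroid plexus and meningeal lists. There the 7 genes were higher in replicate 2, while choroid plexus genes had a median gap of -0.60 and meningeal genes one of -0.79 (12 of 12 negative). Among all 22863 genes tested, 12270 were negative on those arrays. Striatal genes, from the ventral forebrain, had median gaps of -0.09 in Trsp-RIPKO, 0.06 in Trsp-Ins1KO and 0.34 in TrspFF. Against TrspFF the striatal medians were -0.60 in Trsp-RIPKO and -0.53 in Trsp-Ins1KO. Gpr6 was lower in both (-0.78 and -0.58, limma adjusted p = 0.0294 and 0.0472). Adora2a was lower in Trsp-Ins1KO (-2.41, limma adjusted p = 0.0379). Slide and genotype cannot be told apart in these comparisons. Drd1 stood at -3.26 and -3.34 in Trsp-RIPKO, -3.61 and -3.56 in Trsp-Ins1KO, and -2.72 and -2.05 in TrspFF, so its 2 Trsp-Ins1KO arrays lay close together.

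Of 14 genes shared by many neurons, 12 were higher and 2 lower in Trsp-Ins1KO replicate 2, with a median gap of 0.08 and a range of -0.28 to 0.59. Among all 22863 genes tested, 11317 were higher there. The 11 inhibitory neuron genes had a median gap of 0.01 and a range of -0.26 to 0.51 there. Gad1, which makes GABA, stood at 2.91 and 2.98 in Trsp-RIPKO, 2.79 and 2.92 in Trsp-Ins1KO, and 2.88 and 3.05 in TrspFF. The list of hypothalamic and subcortical glutamatergic genes had a median gap of 0.25 on the Trsp-Ins1KO arrays, opposite in sign to that of the 7 genes. Of the 12, 10 were positive, as were 11317 of all 22863 genes tested.

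**Figure D4:**
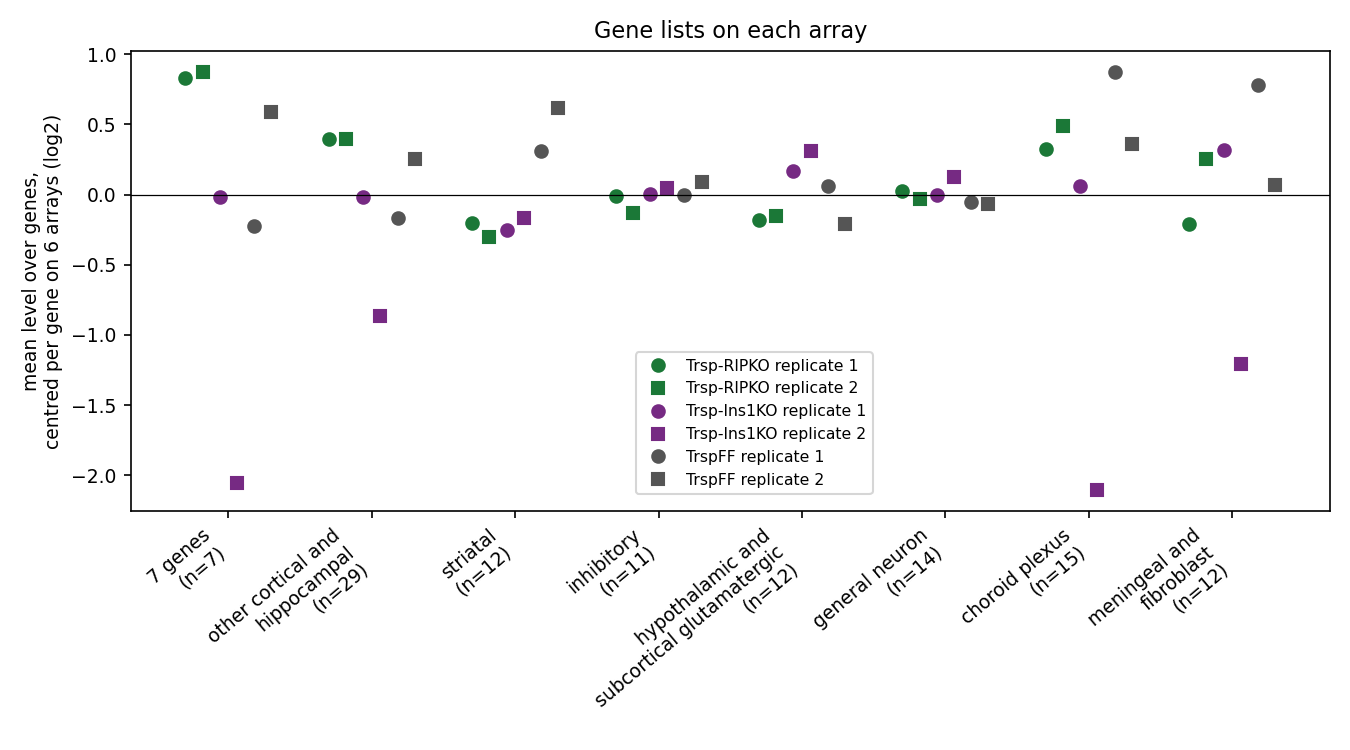
Mean level of 8 gene lists on each array (log2, centred per gene on the 6 arrays, vertical axis), with circles for replicate 1 and squares for replicate 2 and the number of tested genes under each list. Trsp-Ins1KO replicate 2 is at -2.05 for the 7 genes, -0.86 for the other cortical and hippocampal genes and -2.10 for choroid plexus genes, and at 0.12 for general neuron genes.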

How the data were processed

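Total RNA was labelled with Cy3 and hybridised to 6 single-colour Agilent arrays, 2 per genotype. The deposited scanner files hold the processed signal intensity of each spot, background-subtracted by Agilent Feature Extraction 10.7.3.1 per the file headers. The authors also deposited a value table of log2 values, made in a way that the labels do not state. It served as an alternative. Its column medians lay between -0.0496 and 0.0508. Table and arrays were both centred per probe before they were matched, so the match cannot show whether the deposited values were already centred. Here 43020 non-control spots gave 39429 probes; spots of a probe were averaged and 118 probes with an outlier flag were left out. Levels are the log2 intensity minus the array's 75th percentile. Kept were the 28065 probes that in 1 genotype or more passed the scanner's background test on each array, and each of 22863 genes was represented by its brightest probe. Of the 39429 probes, 13374 had no gene symbol, and those kept were counted as genes under the transcript name given by the array. The shares of all genes include them. A symbol other than a predicted-gene or clone name was held by 15090 of the 22863. Differences came from limma 3.58.1 (R 4.3.3) on all 6 arrays with Benjamini-Hochberg adjustment at 0.05, and intervals are 95% intervals. The fit was tested on simulated data with independent noise for each gene, which does not cover shifts shared by many genes on an array.

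The members and the gene lists were chosen with earlier results of these data known. The text names all members, from each list the genes past the threshold and, failing that, at most 4 of smallest p per comparison, Ttr, Slc17a6, Gad1 and Drd1 as markers, and the 8 genes with the most similar profile. Genes of the cortical list named for their replicate gaps, and Nr5a1, Sim1 and Otp, were chosen after their values were seen. Alternatives covered background correction, scaling, the filter, the probe rule, moderation, the samples fitted, a replicate block, the value table and leaving out each array.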

Additional observations from a re-analysis of the deposited data

Results flagged for a closer look

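In 3 of the 7 genes every array labelled Trsp-RIPKO lay above both TrspFF arrays and every array labelled Trsp-Ins1KO below them, so the 2 knockouts lay on opposite sides of the same controls. This arrangement was found for 366 of 22863 genes tested (1.60%). For Neurod6 it rests on near ties on both sides. Trsp-RIPKO replicate 2 was at -0.657 and TrspFF replicate 2 at -0.673, Trsp-Ins1KO replicate 1 at -1.176 and TrspFF replicate 1 at -1.159. Slide and genotype cannot be told apart in the comparisons with TrspFF. The difference between the knockouts was 1.47 for Slc17a7, the vesicular glutamate transporter, 2.67 for Neurod6 and 2.38 for Neurod2 (log2). The test of that difference did not pass for any of the 3 (limma adjusted p = 0.265, 0.324 and 0.273). For Neurod6 and Neurod2 the values without Trsp-Ins1KO replicate 2 were 0.62 and 0.97, and for Slc17a7 the value was 1.17.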

How the results depend on the processing

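No member passed the adjusted threshold in any comparison under any alternative run, with a smallest adjusted p of 0.0595 for Neurod6 in Trsp-Ins1KO minus TrspFF without Trsp-Ins1KO replicate 1. Of 118 member values under alternatives in each comparison, 109, 108 and 111 kept their sign (Trsp-RIPKO minus TrspFF, Trsp-Ins1KO minus TrspFF and Trsp-RIPKO minus Trsp-Ins1KO, the order used below). The deposited value table under its own labels turned the member medians to -0.98, 0.61 and -1.94 and the replicate gaps to -2.28 in Trsp-RIPKO and 0.0409 in Trsp-Ins1KO, since the knockout names are exchanged there. With it Slc17a7 was at -0.86, 0.61 and -1.47, Neurod6 at -2.31, 0.35 and -2.66, Neurod2 at -1.82, 0.56 and -2.38, Tbr1 at -0.98, 0.96 and -1.94, Emx1 at -1.34, 1.27 and -2.61, Lamp5 at -0.65, 1.04 and -1.69, and Nptx1 at -0.42 between the knockouts. With its knockout names exchanged, an alternative chosen after seeing the data, no sign turned. Nptx1 in Trsp-RIPKO minus TrspFF was at 0.0155 with normexp and 0.0382 with quantile normalization, and at -0.28 to 0.0125 when 1 array was left out, the highest without TrspFF replicate 2. In Trsp-Ins1KO minus TrspFF leaving out 1 array gave -2.12 to 0.16 for Tbr1, -2.87 to 0.20 for Emx1 and -1.51 to 0.21 for Lamp5; the positive values came without Trsp-Ins1KO replicate 2 (0.16 for Lamp5) and, for Lamp5, without TrspFF replicate 2. The Trsp-Ins1KO gap was -1.501 with normexp, and the Trsp-RIPKO gap -0.0845 with probes well above background on all arrays and -0.20 with the mean of probes.

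Over all genes, 373, 419 and 4 passed. Without a filter 0, 25 and 1 passed, with trend and robust moderation 744, 1063 and 1, and with only the 2 groups compared 0, 0 and 360; at an unadjusted p under 0.05 the counts of 0 compare with 4977 without a filter, and 4746 and 4884 with 2 groups. Between the knockouts normexp gave 1 and the filter on all arrays 2. Leaving out 1 array gave 0 to 529, 0 to 512 and 0 to 360 genes, and member medians of 0.33 to 0.88, -2.12 to -0.26 and 0.89 to 3.08. With the replicate number as a block, 0, 0 and 0 genes passed (5390, 5697 and 4180 at an unadjusted p under 0.05) and no member sign turned. The labels name no pairing of samples by replicate number. Replicate gaps of genotype pairs correlated across genes at -0.03, 0.09 and -0.02, which cannot show whether samples were paired. The cause of these shifts was not tested. With 2 arrays per genotype the median standard error over genes was 0.127, and Emx1 on Trsp-Ins1KO replicate 2 is limited by background.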

Other observations

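Oligodendrocyte genes, which make myelin and its proteins, had the opposite replicate gap from the 7 genes on the arrays labelled Trsp-Ins1KO: their median gap was 0.30, with 7 of 8 genes higher in replicate 2. Among all 22863 genes tested, 11317 were higher there. On the TrspFF arrays their median gap was 0.33 with 8 of 8 positive (46.3% of all genes). That is the same direction as the gap of the 7 genes (0.55). All 8 were higher in Trsp-RIPKO than in Trsp-Ins1KO by group means, with a median difference of 0.28, against -0.05 for all genes. Of the 8, 0 passed the test (limma, smallest adjusted p = 0.346). An unadjusted p under 0.05 was also found for 0, against 18.3% of all genes. Ermn, a cytoskeletal protein of myelinating cells, averaged 3.93 ± 0.25 in Trsp-Ins1KO and 4.95 ± 0.12 in TrspFF (SD, n = 2 each), a difference of -1.02 (limma adjusted p = 0.0643).

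Thalamic genes had a median replicate gap of 0.33 on the Trsp-Ins1KO arrays, with 8 of 9 positive, and astrocyte genes one of 0.08, with 6 of 8 positive. Among all 22863 genes tested, 11317 were positive there. Among hypothalamic and subcortical glutamatergic genes 11 of 12 had a lower mean in Trsp-RIPKO than in Trsp-Ins1KO. Their median difference was -0.37, against -0.05 for all genes. Of the 12, 0 passed the test (limma, smallest adjusted p = 0.265). An unadjusted p under 0.05 was found for 4, against 18.3% of all genes. Foxb1, a factor of mammillary neurons, averaged -0.81 ± 0.13 in Trsp-Ins1KO and -1.30 ± 0.02 in TrspFF, a difference of 0.49 (limma adjusted p = 0.0789).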
